A study of Mus musculus with 5 samples.

Results

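AP-1 and immediate early transcription factors were followed in mouse embryonic fibroblasts (MEFs) without Dicer after depletion of TARBP2, a protein that binds double-stranded RNA and works with Dicer in microRNA processing. The members were 10 genes chosen by symbol: Fos, Fosb, Fosl1, Fosl2, Jun, Junb, Jund, Egr1, Egr2 and Ier3. By the platform annotation 9 of the 10 genes had 1 probe each and Fosl2 had none, so the members were 9 of the 16593 genes, and 9 of the 25697 probes, on the arrays. All 9 passed the filter for signal above background, as did 8927 genes in all. Every array held RNA from Dicer-null MEFs of the C57BL/6 strain, taken 48 hours after lipid transfection. The knockdown group had 2 arrays, siTARBP2-1 and siTARBP2-2, which by the series' design text carry independent siRNAs, and the control group 3 arrays, siControl-1 to siControl-3. With 1 array per siRNA, a difference between the siRNAs and a difference between those arrays cannot be told apart. The log2 signals of the siTARBP2 pair differed with an SD of 0.387 over probes, against 0.173 to 0.212 for pairs of control arrays. The Dicer deletion was thus shared by knockdown and control. The design text submitted with the series speaks of metastatic cells and of mock transfection; the sample labels were followed here. The labels do not say whether the arrays came from separate cultures or whether the cells were 1 clone. The p-values therefore set a change only against the scatter between arrays, and that scatter may be technical. For each siRNA alone it comes from the 3 control arrays.

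AP-1 is a dimer of basic leucine zipper (bZIP) proteins. Members of the Fos family pair with members of the Jun family, and Jun proteins can also pair with each other. Fos, Fosb, Egr1, Egr2, Junb and Ier3 are known as immediate early genes, which are transcribed within minutes of a growth or stress signal through MAP kinases and serum response factor, and whose mRNAs are short-lived. Fosl1 follows later in many cells and is itself a target of AP-1. In fibroblasts AP-1 is known for driving proliferation and matrix-degrading proteases. RNA was sampled at 48 hours only.

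Tarbp2 was checked before the members. Its probe ILMN_2939990 stood at 28.7% of control with siTARBP2-1 and at 20.4% with siTARBP2-2 (limma, adjusted p = 0.0012 and 0.00129). Its probe ILMN_2649955 stood at 37.6% and 20.9% (limma, adjusted p = 0.00193 and 0.00129). The median raw signal per array lay between 79.0 and 81.9, close to Fosb signals (76.5 and 79.7) that were not above background. The total raw signal was 1.098e+07 on siTARBP2-1, 1.219e+07 on siTARBP2-2 and 1.154e+07 to 1.228e+07 on the control arrays. Per array 12445 to 13051 probes were above background, with detection values set by signal rank for siTARBP2-2. Of 8 fibroblast markers 7 were above background on all 5 arrays and Thy1 on none. Of 4 leukocyte markers with a probe (Ptprc, Adgre1, Itgam and Lyz2) none was above background on any array (0 of 5). Of the pluripotent markers Pou5f1 was above background on all 5 arrays and Nanog on none. The endothelial markers Pecam1 and Kdr were above background on 1 array each and Cdh5 on none; the epithelial Krt18 was above background on all 5 arrays and Cdh1 and Krt8 on 2. Krt18 had log2 signals of 5.25, 5.87 and 5.39 in control, 5.60 for siTARBP2-1 and 6.58 for siTARBP2-2, where its change of 1.08 did not pass (limma, adjusted p = 0.0502). The summed raw signal of the epithelial markers was 252.8 to 271.1 in control, 251.7 for siTARBP2-1 and 305.1 for siTARBP2-2, the array with most member calls; its part in those calls was not tested. The fibroblast collagen Col1a1 fell with both siRNAs (log2 change -0.65 and -0.55; limma, adjusted p = 0.0214 and 0.0491). Col3a1 (-0.59) and the growth factor receptor Pdgfra (-0.79) fell with siTARBP2-1 (limma, adjusted p = 0.0245 and 0.0211), had 0.13 and 0.32 with siTARBP2-2, and differed between the arrays (-0.72 and -1.10; adjusted p = 0.0258 and 0.0156). The fibroblast markers Vim (0.12 and -0.03), Col1a2 (-0.04 and -0.01), Pdgfrb (-0.38 and -0.17) and S100a4 (-0.44 and -0.54) passed with neither siRNA. The summed raw signal of the fibroblast markers was 8274.2 to 8721.7 on the control arrays, 6992.3 on the siTARBP2-1 array and 7785.7 on the siTARBP2-2 array. These sums are not normalized, and the total raw signal of all probes was also lowest on the siTARBP2-1 array. The part of either in the results that follow was not tested. In bulk RNA, fewer cells of a type and less RNA per cell cannot be told apart.

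The promoters of Fos, Jun, Junb and Ier3 are shown because these members, together with Fosl1, had both TARBP2 siRNA arrays outside the range of the control arrays. Each line gives the 250 bases before the RefSeq transcription start (assembly GRCm38.p6), 5′ to 3′ on the gene's own strand. Capitals mark any of 8 motifs found on either strand.
Fos (chr12:85473640-85473889, plus strand): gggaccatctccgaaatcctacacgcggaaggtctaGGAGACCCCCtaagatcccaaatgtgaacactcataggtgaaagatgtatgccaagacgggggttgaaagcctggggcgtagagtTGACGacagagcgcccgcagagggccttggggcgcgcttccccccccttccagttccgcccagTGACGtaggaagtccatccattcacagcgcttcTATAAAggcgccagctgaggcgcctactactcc
Jun (chr4:95052223-95052472, minus strand): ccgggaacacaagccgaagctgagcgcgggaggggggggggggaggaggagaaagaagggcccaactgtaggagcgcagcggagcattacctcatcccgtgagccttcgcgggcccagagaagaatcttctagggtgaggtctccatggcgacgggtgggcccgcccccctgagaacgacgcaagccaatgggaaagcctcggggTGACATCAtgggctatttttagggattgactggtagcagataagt
Junb (chr8:84978749-84978998, minus strand): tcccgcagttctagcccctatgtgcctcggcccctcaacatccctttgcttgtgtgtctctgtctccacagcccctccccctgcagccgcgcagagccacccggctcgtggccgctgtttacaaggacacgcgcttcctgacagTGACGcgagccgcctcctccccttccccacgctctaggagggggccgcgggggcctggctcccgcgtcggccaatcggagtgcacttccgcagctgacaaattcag
Ier3 (chr17:35821463-35821712, plus strand): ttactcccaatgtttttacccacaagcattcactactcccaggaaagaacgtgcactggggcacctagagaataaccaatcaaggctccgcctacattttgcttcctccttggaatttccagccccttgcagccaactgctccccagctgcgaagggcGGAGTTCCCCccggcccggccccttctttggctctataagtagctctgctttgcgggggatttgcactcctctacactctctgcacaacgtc
Fos held the TATA box TATAAA, its first base 33 bases before the start, 2 CRE core motifs TGACG, at 129 and 66 bases, and an NF-kB motif at 214 bases. Jun held TGACATCA at 45 bases, a match of the CRE-like motif TGACNTCA. Junb held the core TGACG at 106 bases, and Ier3 held an NF-kB motif at 92 bases. These 4 windows held no match of the AP-1 motif TGANTCA, the full CRE TGACGTCA, the EGR motif GCGNGGGCG or the CArG box, which serum response factor binds. Over all 32851 RefSeq promoter windows the share that held TGANTCA was 6.75%; it was 1.55% for TGACGTCA, 4.7% for GCGNGGGCG and 1.47% for the CArG box. TGACNTCA, which covers TGACGTCA, was in 7.49%, TGACG, which TGACGTCA also holds, in 17.8%, TATAAA in 12.4% and the NF-kB motif in 7.25%. Among the other members with a window, Fosb and Fosl2 each held an EGR motif, and Egr2 held a CArG box at 2 positions, 1 of them shared by 3 overlapping windows. The NF-kB motif was also found in Fosb, Fosl2 and Egr2, and the core TGACG in Fosb and Egr2. Jund held none of the 8 motifs. Of the 10 members 8 had a window, all but Fosl1 and Egr1. A match describes these letters and not a bound site. Bases further than 250 before the start were not searched, so the absence of a motif holds for the window only. The TATA box, the CRE-like motif, the CRE core and the NF-kB motif were added after the other 4 motifs had been searched.

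Signals below are background corrected and quantile normalized log2 intensities. A probe passed the test at a Benjamini-Hochberg adjusted p under 0.05, adjusted over the 13123 probes kept. In limma's fit with a coefficient for each siRNA, 2 of the 9 members passed for siTARBP2-1 (22.2%), beside 7.06% of all kept probes; 1 was higher, beside 3.54%, and 1 lower, beside 3.51%. For siTARBP2-2 it was 3 of 9 (33.3%), all higher, beside 3.92% (1.5% higher and 2.42% lower). Between the siRNAs 1 of 9 passed (11.1%) and was lower with siTARBP2-1, beside 6.55% (3.57% higher and 2.97% lower). In the fit of both siRNAs together 0 of 9 passed, beside 0.00762%; 5 of the 9 had an unadjusted p under 0.05 there (55.6%), as had 12.4% of all kept probes. Both siRNA arrays lay above all 3 controls for 4 members and below them for 1, that is 5 of 9 (55.6%), beside 30.2% of all kept probes (15.2% above and 15% below). The median log2 change of the 9 members was -0.05 for siTARBP2-1 and 0.50 for siTARBP2-2, against -0.01 and 0.01 for all kept probes. The 9 genes were named with earlier results of these data known, so these shares describe them and carry no test. In each siRNA's fit the spread comes from the control arrays, moderated over all probes, and the lone siRNA array is assumed to vary like them, which these data cannot test.

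**Figure D1:**
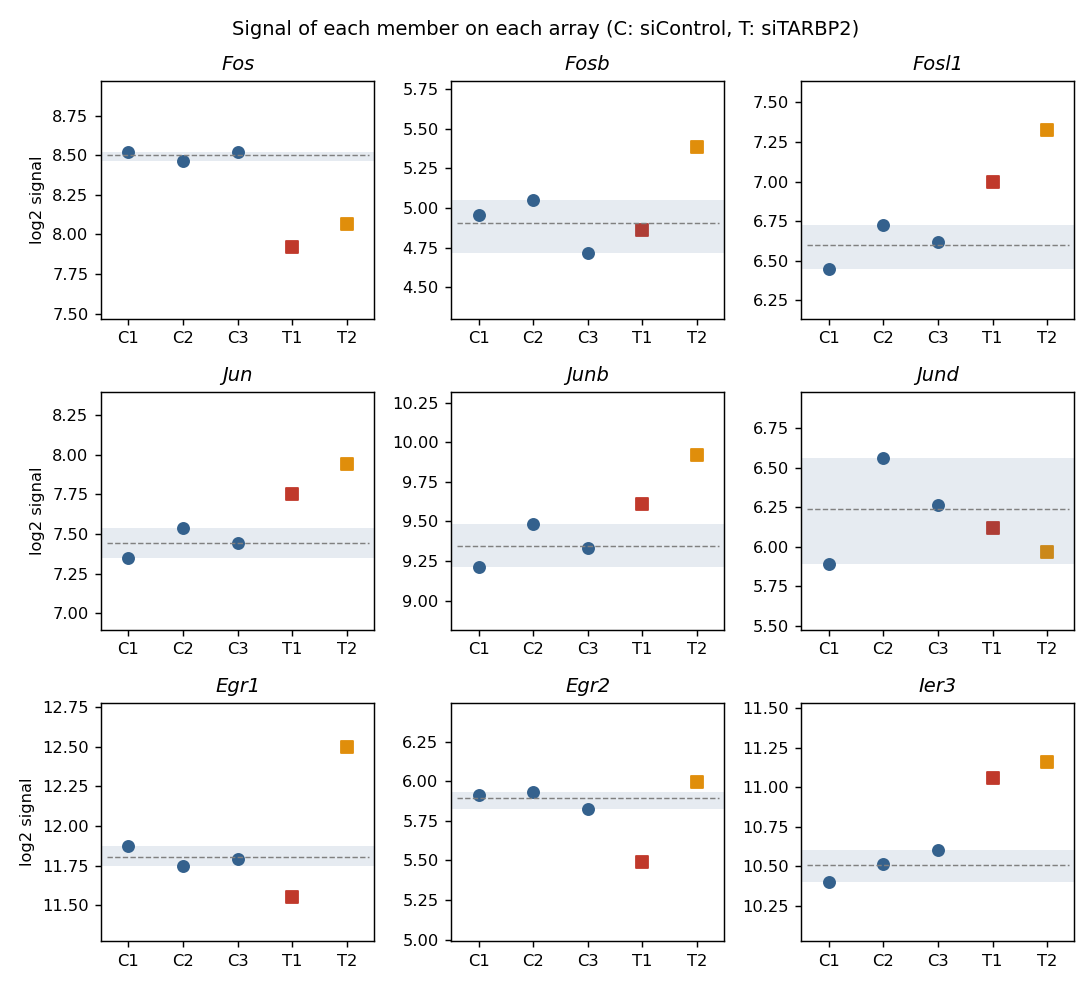
Normalized log2 signal of the 9 members on each array, with siControl-1 to siControl-3 as circles (C1 to C3) and siTARBP2-1 and siTARBP2-2 as squares (T1 and T2). The dashed line is the control mean and the band the control range, and each panel spans the same height in log2 units. Fos lies below the band on both siRNA arrays, Fosl1, Jun, Junb and Ier3 lie above it on both, and Egr1 and Egr2 are split.

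Of the Fos family, Fos itself fell with siTARBP2-1. Fos encodes c-Fos, the classical partner of Jun in AP-1. Its probe ILMN_2750515 had log2 signals of 8.52, 8.46 and 8.52 on siControl-1 to siControl-3, against 7.92 for siTARBP2-1 and 8.06 for siTARBP2-2. Both siRNA arrays were below all 3 controls, by more than the controls differed from each other (SD 0.0319, n = 3). In raw signal the controls ran from 405.3 to 438.9, against 273.9 and 327.7. Fos stood at 66.9% of control with siTARBP2-1 (95% interval 55.9 to 80.0%; log2 change -0.58, SE 0.11; limma, adjusted p = 0.0266). With siTARBP2-2 it stood at 74.0% (log2 change -0.44, SE 0.11), which did not pass the test (limma, adjusted p = 0.078). The difference between the siRNAs was -0.14 (95% interval -0.46 to 0.17; limma, adjusted p = 0.548), and -0.30 with median scaling. The call for siTARBP2-1 ended without siControl-2 (limma, adjusted p = 0.0866) and without siControl-3 (0.0543), with values of -0.60 and -0.57.

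Fosl1, which encodes the Fos family protein Fra-1, stood on the other side of control. Log2 signals in control were 6.45, 6.72 and 6.62, while the siTARBP2-1 array had 7.0 and the siTARBP2-2 array 7.32. Both siRNA arrays were above all controls, siTARBP2-2 by the wider gap. Fosl1 rose 1.65-fold with siTARBP2-2 (95% interval 1.32 to 2.07; log2 change 0.73, SE 0.14; limma, adjusted p = 0.0412). With siTARBP2-1 it was 1.32-fold (log2 change 0.40, SE 0.14), which did not pass (limma, adjusted p = 0.134). The call ended without siControl-2 (limma, adjusted p = 0.0932), without siControl-3 (0.0571) and with no filter on dim probes (0.0805).

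Fosb, a further Fos family member, lay near background. On siControl-1 to siControl-3 the log2 signal was 4.96, 5.05 and 4.72; it was 4.86 for siTARBP2-1 and 5.39 for siTARBP2-2. On siTARBP2-1 and siControl-3 it was not above background, with detection values of 0.0664 and 0.154 over the limit of 0.05. The siTARBP2-1 array lay within the controls and the siTARBP2-2 array above them. The control mean was at least 1.00-fold the lowest detected signal of the siTARBP2-1 array, a bound that leaves no measured difference there. For siTARBP2-2 its value against control was 0.48 on the log2 scale (SE 0.15; limma, adjusted p = 0.126), which missed the threshold; with no background correction it was 0.21.

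Jun and Junb were above every control on both siRNA arrays without passing the test. Jun encodes c-Jun, the main activating Jun protein. Its control arrays gave log2 signals of 7.35, 7.54 and 7.45, against 7.75 for siTARBP2-1 and 7.94 for siTARBP2-2. The log2 changes were 0.31 (SE 0.12; limma, adjusted p = 0.185) and 0.50 (SE 0.12; adjusted p = 0.0734). Junb, which often restrains c-Jun in growing fibroblasts, had log2 signals of 9.21, 9.48 and 9.33 in control, against 9.61 for siTARBP2-1 and 9.92 for siTARBP2-2. Its log2 changes were 0.27 (SE 0.14; limma, adjusted p = 0.273) and 0.58 (SE 0.14; adjusted p = 0.0665). The raw signal of Junb on the siTARBP2-1 array, 757.0, lay inside the control range of 667.8 to 793.0 before normalization. With siTARBP2-2 Junb passed under 5 of the 9 alternatives and Jun under 4, among them the authors' series matrix values (limma, adjusted p = 0.00988 and 0.0239). No background correction (limma, adjusted p = 0.00952 and 0.0231) and normexp (0.00946 and 0.023) gave nearly the same values. These alternatives therefore largely repeat each other. With siTARBP2-1 both values shrank with median scaling, to 0.12 for Junb and 0.18 for Jun.

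Jund, the Jun family member that is present in resting cells and tends to oppose growth, could not be separated from control. Log2 signals in control were 5.89, 6.56 and 6.27, while the siTARBP2-1 array had 6.12 and the siTARBP2-2 array 5.97. Both siRNA arrays lay inside the control range, which was the widest of the 9 members (SD 0.336, n = 3). The log2 changes were -0.12 (95% interval -0.67 to 0.43; limma, adjusted p = 0.791) and -0.27 (95% interval -0.82 to 0.28; adjusted p = 0.536), and -0.08 and -0.16 with no background correction.

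Egr1 was higher than control on the siTARBP2-2 array and not on the siTARBP2-1 array. It encodes a zinc finger factor induced by serum and growth factors through ERK and the ternary complex factors. On siControl-1 to siControl-3 the log2 signal was 11.87, 11.75 and 11.79; it was 11.55 for siTARBP2-1 and 12.50 for siTARBP2-2. siTARBP2-1 lay below all controls and siTARBP2-2 above all of them; in raw signal these were 2818.2 and 5998.8, against 3520.6 to 3970.7 in control. Egr1 rose 1.62-fold with siTARBP2-2 (95% interval 1.34 to 1.95; log2 change 0.69, SE 0.11; limma, adjusted p = 0.0302). For siTARBP2-1 the value was -0.25 (SE 0.11) and missed the threshold (limma, adjusted p = 0.23). Over both siRNAs together the log2 change was 0.22 and did not pass (limma, adjusted p = 0.763). Tested array against array with the control spread, siTARBP2-1 minus siTARBP2-2, the difference was -0.95 (SE 0.14; 95% interval -1.28 to -0.62; limma, adjusted p = 0.0147), and it passed under all 9 alternatives run for it (adjusted p = 0.000412 to 0.04). The call for siTARBP2-2 against control ended without siControl-2 (limma, adjusted p = 0.11) and with no filter (0.0561).

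Egr2, a relative of Egr1 that is also part of the early response, had the same order of arrays without passing. Its control arrays gave log2 signals of 5.91, 5.93 and 5.83, against 5.49 for siTARBP2-1 and 5.99 for siTARBP2-2. siTARBP2-1 was below all controls and siTARBP2-2 just above them. The log2 changes were -0.40 (SE 0.11; limma, adjusted p = 0.0859) and 0.10 (SE 0.11; adjusted p = 0.637; 0.05 with no background correction), and the difference, siTARBP2-1 minus siTARBP2-2, was -0.50 (SE 0.14; adjusted p = 0.08). With no background correction the change for siTARBP2-1 was -0.20 and the difference -0.25.

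Ier3 was the only member that passed with each siRNA. It encodes a small early response protein known to modulate cell survival and ERK signalling. Log2 signals in control were 10.40, 10.51 and 10.61, while the siTARBP2-1 array had 11.06 and the siTARBP2-2 array 11.16. Both siRNA arrays were above all controls and differed from each other by about the control SD (0.102, n = 3), and by -0.27 with median scaling. Ier3 rose 1.47-fold with siTARBP2-1 (95% interval 1.20 to 1.80; log2 change 0.55, SE 0.12; limma, adjusted p = 0.0461) and 1.57-fold with siTARBP2-2 (95% interval 1.28 to 1.93; log2 change 0.65, SE 0.12; adjusted p = 0.0412). These comparisons share the control arrays. Over both siRNAs together the log2 change was 0.60 (SE 0.11; limma, adjusted p = 0.139), which did not pass. Without siControl-2 both calls ended (limma, adjusted p = 0.131 and 0.127), as they did with no filter (0.0748 and 0.0727). The call for siTARBP2-1 also ended with median scaling (limma, adjusted p = 0.103) and without siControl-1 (0.0503).

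**Figure D2:**
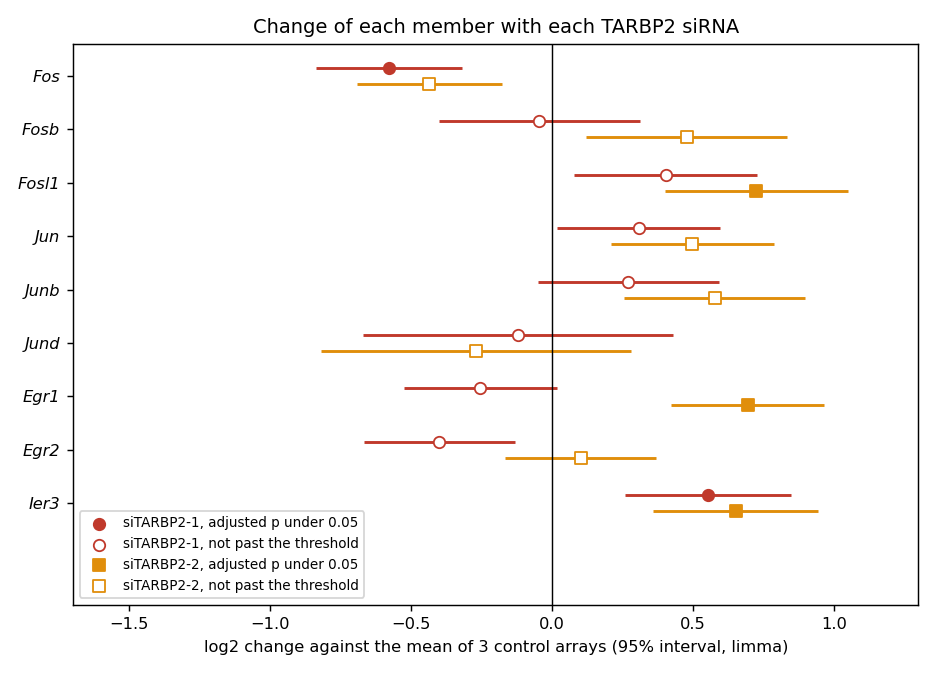
Log2 change of each member against the mean of the 3 control arrays (horizontal axis), with circles for siTARBP2-1, squares for siTARBP2-2 and lines for limma's 95% interval. Filled symbols passed at an adjusted p under 0.05: Fos (-0.58) and Ier3 (0.55) with siTARBP2-1, and Fosl1 (0.73), Egr1 (0.69) and Ier3 (0.65) with siTARBP2-2.

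In the authors' deposited table, which gives 1 log fold change for knockdown against control per RefSeq accession, Fos had -0.35, Jun 0.24, Junb 0.36, Egr1 0.22 and Ier3 0.58. The authors' deposited table marked Jun, Junb, Egr1 and Ier3 as higher, among 8.67% of its 18744 accessions. Fos, Fosb (0.05), Jund (-0.07) and Egr2 (-0.04) were not marked, and the mark covers higher values only. No value was found there for Fosl1 by its RefSeq accession.

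**Figure D3:**
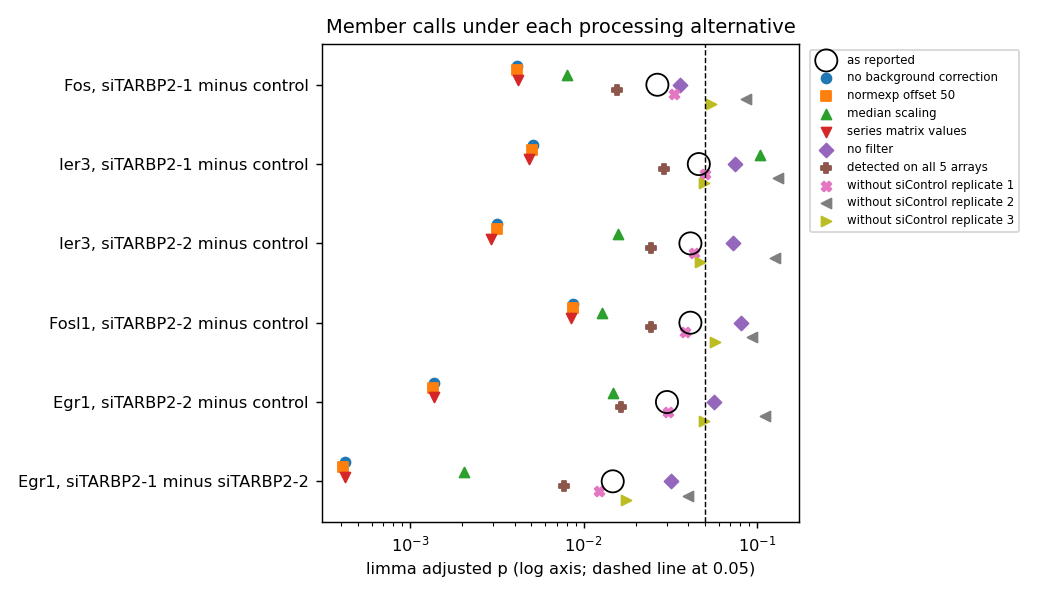
Limma adjusted p (logarithmic axis, dashed line at 0.05) of the 6 member calls as reported (open circles) and under 9 processing alternatives (small symbols). The difference in Egr1 between the siRNAs stays left of the line throughout, while the other 5 calls cross it without siControl-2.

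Genes around the members were described from 5 lists, with 1 probe a gene. The filter kept 16 of 25 upstream genes, 8 of 13 bZIP relatives, 23 of 31 other immediate early genes, 9 of 15 feedback inhibitors and 19 of 23 targets. Beside them, limma called 7.65% of 8927 genes for siTARBP2-1 (3.88% higher and 3.78% lower) and 4.27% for siTARBP2-2 (1.75% higher and 2.52% lower), and the median log2 change of all genes was -0.01 and 0.02. Between the siRNAs it called 7.06% (3.72% higher and 3.34% lower). Over both siRNAs together it called 0 genes in each list, beside 0.0112% of all genes; 2 to 8 genes a list had an unadjusted p under 0.05 there, as had 12.9% of all genes. Upstream are the MAP kinases and the serum response and ternary complex factors that switch immediate early genes on. Of 16 measured upstream genes 0 rose and 1 fell with each siRNA, with medians of -0.18 for siTARBP2-1 and -0.07 for siTARBP2-2. Map2k2, a kinase that activates ERK, had log2 signals of 10.94, 10.83 and 10.97 in control, against 10.23 for siTARBP2-1 and 10.88 for siTARBP2-2. It fell with siTARBP2-1 (-0.69, SE 0.12; limma, adjusted p = 0.0197) and was lower there than with siTARBP2-2 (-0.66, adjusted p = 0.0443); its other kept probe had -0.73 with siTARBP2-1 (adjusted p = 0.0216) and missed the threshold for the difference (-0.67, adjusted p = 0.0526). With no filter the difference in Map2k2 (limma, adjusted p = 0.0629) and the call of Map2k6 (0.0916) ended. Map2k6, which activates p38, fell with siTARBP2-2 (-0.85, SE 0.16, limma adjusted p = 0.0401), and by 0.40 on the log2 scale with no background correction. Its log2 signal was 5.59, 5.55 and 5.24 in control and 4.61 on the siTARBP2-2 array. That is under the Fosb signals of 4.86 and 4.72 that were not above background, so the size of this fall is not well measured. Map3k1, a kinase of the JNK branch, differed between the siRNAs, siTARBP2-1 minus siTARBP2-2 (-0.61; limma, adjusted p = 0.0443).

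Among the bZIP partners and relatives of AP-1, 1 of 8 measured genes rose with siTARBP2-1 and 0 with siTARBP2-2, and 0 fell with either (medians -0.20 and 0.16). The riser was Atf3, a stress-induced bZIP protein that pairs with Jun. On siControl-1 to siControl-3 the log2 signal was 8.54, 8.57 and 8.50; it was 9.59 for siTARBP2-1 and 8.90 for siTARBP2-2. Both siRNA arrays were above all controls. Atf3 rose by 1.05 with siTARBP2-1 (SE 0.11; limma, adjusted p = 0.0039) and had 0.37 with siTARBP2-2 (adjusted p = 0.112). The difference between the siRNAs passed (0.68; limma, adjusted p = 0.031) but not with median scaling (0.116) or without siControl-2 (0.0813).

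Of 23 measured other immediate early genes 4 rose and 0 fell with siTARBP2-1, and 0 rose and 1 fell with siTARBP2-2 (medians 0.12 and 0.13). With siTARBP2-1 the orphan nuclear receptor Nr4a2 rose by 0.87 (SE 0.15; limma, adjusted p = 0.0198), the zinc finger factor Klf6 by 0.76 and the polo-like kinase Plk3 by 0.76. The mRNA decay factor Zfp36 rose by 0.60, a call that ended with median scaling (0.46; limma, adjusted p = 0.0739). Nr4a2 had 0.55 with no background correction, and with no filter the calls of Nr4a2, Klf6, Plk3 and Dusp1 ended (limma, adjusted p = 0.0543 to 0.107). The other kept probe of Klf6 rose with both siRNAs, by 0.90 and 0.69 (limma, adjusted p = 0.00701 and 0.0291). Dusp1, a phosphatase that switches MAP kinases off, had log2 signals of 12.27, 12.39 and 12.43 in control, against 12.47 for siTARBP2-1 and 11.69 for siTARBP2-2. It fell with siTARBP2-2 (-0.68, SE 0.12, limma adjusted p = 0.0365) and differed between the siRNAs, siTARBP2-1 minus siTARBP2-2 (0.78, adjusted p = 0.0269). That difference missed the threshold with median scaling (limma, adjusted p = 0.0501) and without siControl-2 (0.071).

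Of 9 measured feedback inhibitors of the MAP kinase and EGR pathways limma called 0 against control with either siRNA, with medians of -0.24 and 0.10; 2 and 4 had an unadjusted p under 0.05, as had 24.7% and 22.9% of all genes. Between the siRNAs Dusp4, a nuclear MAP kinase phosphatase, was lower with siTARBP2-1 (-0.77; limma, adjusted p = 0.0254). Control log2 signals were 6.62, 6.74 and 6.68, against 6.44 for siTARBP2-1 and 7.21 for siTARBP2-2, which put the arrays in the order seen for Egr1. Its other kept probe had -0.49 and did not pass (limma, adjusted p = 0.134).

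Of 19 measured genes known as targets of AP-1 or EGR factors, 5 rose and 1 fell with siTARBP2-1, and 2 rose and 0 fell with siTARBP2-2 (medians 0.22 and 0.21). Mmp13, an AP-1-driven collagenase, had log2 signals of 5.45, 5.33 and 5.41 in control, against 6.62 for siTARBP2-1 and 6.54 for siTARBP2-2. It rose by 1.23 (SE 0.11; limma, adjusted p = 0.00273) and 1.15 (adjusted p = 0.0101), and by 0.68 and 0.62 with no background correction. Pdgfb, a growth factor gene with EGR1 binding sites in its promoter, rose by 1.36 and 1.15 (SE 0.18 each; limma, adjusted p = 0.00844 and 0.0274), and by 0.84 and 0.69 with no background correction. The growth factor subunit Pdgfa (0.75), the cyclin Ccnd1 (0.53) and the adhesion molecule Icam1 (0.51) rose with siTARBP2-1, and the sphingosine kinase Sphk1 fell (-0.59). With siTARBP2-2 these genes had 0.18, 0.31, 0.44 and 0.12 in the same order, and none passed. Sphk1 also differed between the siRNAs, siTARBP2-1 minus siTARBP2-2 (-0.71, limma adjusted p = 0.0335). With median scaling the calls of Ccnd1 and Icam1 ended (limma, adjusted p = 0.112 and 0.115), and with no background correction Icam1 had 0.31. With no filter those of Ccnd1, Icam1 and Pdgfa and that of Pdgfb with siTARBP2-2 ended (limma, adjusted p = 0.0514 to 0.084). The other kept probes of Ccnd1 had 0.04 and 0.46 and did not pass (limma, adjusted p = 0.871 and 0.0619). Of the 22 list calls over the 3 comparisons, 7 ended without siControl-3 and 1 without siControl-1; 17 ended without siControl-2, those of Mmp13, of Pdgfb and of Atf3 against control being the ones that did not. Mmp13 and Pdgfb were known from earlier results of these data when the list was drawn up.

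**Figure D4:**
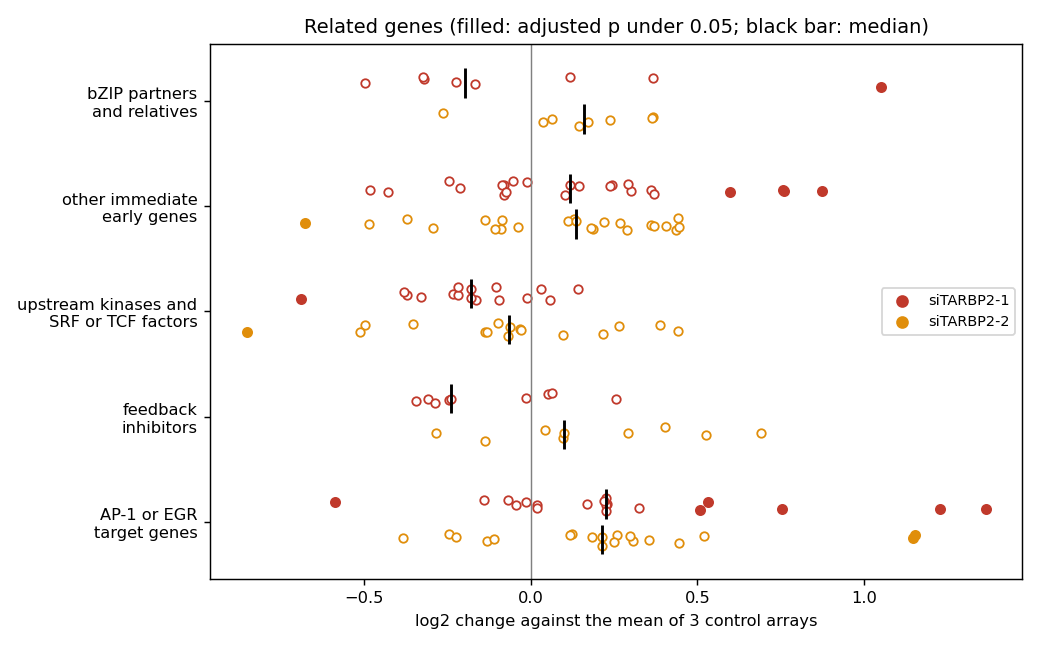
Log2 change against the mean of the 3 control arrays (horizontal axis) for the genes of the 5 lists, red for siTARBP2-1 and orange for siTARBP2-2. Filled points passed at an adjusted p under 0.05 and black bars are list medians; Mmp13 and Pdgfb are the filled points furthest to the right in the target list with both siRNAs.

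The genes whose arrays lay closest to a member were found by the Euclidean distance of log2 signals, each minus its control mean, over the 5 arrays, for the 3 members with the largest root mean square change. For Ier3 they were Tmc7 (distance 0.121), Mospd1 (0.129) and Llgl2 (0.148). For Fosl1 they were Itga6 (0.0799), Mospd1 (0.156) and Fam83g (0.168). For Egr1 they were Pcolce2 (0.112), Dmrta2 (0.134) and Fgd6 (0.146), with log2 changes of -0.24, -0.20 and -0.15 for siTARBP2-1 and 0.60, 0.73 and 0.67 for siTARBP2-2. By root mean square change Ier3 ranked 416 of 8927 genes, Fosl1 458 and Egr1 662.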

How the data were processed

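Total RNA was biotin-labelled and hybridised to 1-colour Illumina BeadChips, per the labels. The deposited non-normalized table gives a linear intensity and a detection p-value per probe and array. The submitters' processing notes name lumi, with no version or settings. The deposited detection p-value column beside siTARBP2-2 did not follow its signals (Spearman correlation 0.000598, against -0.961 to -0.967 on the other arrays), so its values were set by signal rank from the averages of the remaining arrays. The series matrix holds the authors' processed linear intensity, whose nearly equal quantiles on every array are those of quantile normalized values. The authors' deposited table holds a log2 fold change and a score of 1 for accessions marked higher; its log base is not stated and was taken as log2 from a slope of 0.939 on the series matrix ratio of bright probes.

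Signals were corrected and normalized with neqc of limma 3.58.1 (R 4.3.3, offset 16), with background inferred from the detection p-values. The filter kept probes detected (p under 0.05) on 2 or more arrays. Gene names came from the platform annotation (23978 probes with 1 symbol, 0 with several, 1719 with none). Limma's lmFit and eBayes (two-sided) gave a coefficient per siRNA, and a second fit joined both siRNAs. All member probes were reported. Genes of the 5 lists were represented by their highest-mean probe, and up to 6 that passed in any comparison were named per list by the smallest p. Alternatives were no background correction, normexp with an offset of 50, median scaling, series matrix values, other filters, a replicate block and leaving out arrays. Members and lists were chosen with earlier results of these data known. The number of arrays limits the precision.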

Additional observations from a re-analysis of the deposited data

Results flagged for a closer look

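Egr1 stood on opposite sides of the controls on the siTARBP2 arrays. The difference, siTARBP2-1 minus siTARBP2-2, was -0.95 on the log2 scale (limma, adjusted p = 0.0147; 0.000412 to 0.04 under the alternatives). That p takes its spread from the control arrays, while the siTARBP2 pair differed with an SD of 0.387 over all kept probes and control pairs with 0.173 to 0.212; siRNA and array cannot be told apart. The siTARBP2-1 array was below all 3 controls and the siTARBP2-2 array above them, with 1 array for each siRNA. Tarbp2 itself stood at 28.7% of control with siTARBP2-1 and 20.4% with siTARBP2-2 by probe ILMN_2939990, and at 37.6% and 20.9% by probe ILMN_2649955. The log2 difference in Tarbp2, siTARBP2-1 minus siTARBP2-2, was 0.49 and 0.85 by these probes, of which only the latter passed. The part of this in the Egr1 difference was not tested.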

How the results depend on the processing

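Of 347 member values under the alternatives 342 kept their direction, 13 lost a call and 17 gained one. Those that turned were small or rested on 1 siRNA: with siTARBP2-1, Fosb ranged from -0.14 to 0.026 and Jund from -0.29 to 0.040 when 1 control array was left out (above 0 without siControl-2). Over both siRNAs, Egr2 ranged from -0.40 without siTARBP2-2 to 0.10 without siTARBP2-1, Fosb from -0.046 to 0.48 and Egr1 from -0.25 to 0.69 in the same order. Leaving out a siTARBP2 array turns the fit over both siRNAs into that of the other siRNA alone. The values that turned there, and the calls gained there, repeat the results given above for each siRNA. The members called for siTARBP2-2 numbered 6 with no background correction, with normexp and with the series matrix values, 5 for probes detected on all 5 arrays and 0 with no filter. Those called for siTARBP2-1 numbered 1 with median scaling and 1 with no filter. Leaving out 1 control array gave 0 to 1 members for siTARBP2-1, 0 to 3 for siTARBP2-2 and 1 between the siRNAs. Against control both counts were 0 without siControl-2. No background correction, normexp and the series matrix values gave nearly the same results, so counts over the alternatives largely repeat them.

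Over all probes the counts were 926 for siTARBP2-1, 514 for siTARBP2-2, 859 between them and 1 over both. With no background correction they were 1621, 1249 and 1706, with normexp 1626, 1249 and 1718, with the series matrix values 1626, 1254 and 1696, and with no filter 583, 105, 511 and 0. For probes detected on all 5 arrays they were 783 for siTARBP2-2 and 2 over both, and with median scaling 12 over both. Leaving out 1 control array gave 337 to 1089 for siTARBP2-1, 79 to 688 for siTARBP2-2 and 364 to 1298 between them. Median scaling moved the median of all probes by -0.10 for siTARBP2-1 and -0.12 between the siRNAs; the split for siTARBP2-1 went from 465 higher and 461 lower to 331 and 793, for siTARBP2-2 from 197 and 317 to 281 and 333, and between the siRNAs from 469 and 390 to 378 and 856. The cause of these moves was not tested.

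With the replicate number as a block, possible only over both siRNAs, 0 members and 0 probes were called. The deviations of same-numbered arrays from their group means had correlations of -0.0485 and -0.0266. With 2 siTARBP2 arrays these deviations mirror each other and hold the difference between the siRNAs. They therefore cannot tell whether same-numbered arrays were paired, and the main fits used no pairing. The 10 list medians kept their sign under all 9 alternatives; for siTARBP2-1 the feedback inhibitors ranged from -0.34 to -0.05 and the targets from 0.09 to 0.26. Of 22 list calls 11 ended with no filter and 5 with median scaling. Each siRNA has 1 array, so its own spread is unknown, and dim probes such as Fosb, Jund and Egr2 lie near background.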
